A study of Homo sapiens with 4 samples.

Results

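STC1, STC2, ADM2, GDF15 and FGF21 encode secreted peptide hormones and stress cytokines, and were examined in BICR10 cells after knockdown of the histone reader YEATS2. They are 5 of the 60623 genes with a row in the deposited count tables, and were found by their symbols. The set was drawn up with the difference between the knockdown and its control already known. The differences of the 5 genes are therefore given as a description with no test, while tests are kept for their receptors, processing enzymes and regulators. BICR10 is an established human head and neck cancer cell line. All 4 libraries came from these cells after lentiviral transduction and puromycin selection, 2 of them carrying the control hairpin (called shControl) and 2 carrying one directed at YEATS2 (called shYEATS2). The labels do not say which of the YEATS2 hairpins a library carried, nor that libraries of one condition came from separate cultures, so every p-value measures the spread between these libraries, which may be technical.

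Stanniocalcins, encoded by STC1 and STC2, are glycoprotein hormones that bind the pappalysin proteases and stop them from cleaving the carriers of insulin-like growth factors. ADM2, also called intermedin, is a small amidated peptide of the calcitonin family, and acts on the receptor CALCRL in complex with a RAMP protein. GDF15 is a distant member of the TGF-beta superfamily that signals through GFRAL and RET in the hindbrain, and FGF21 is an endocrine fibroblast growth factor that needs the co-receptor KLB beside an FGF receptor. Several of these genes are known to be switched on by the integrated stress response, in which kinases phosphorylate the initiation factor eIF2alpha, translation of the transcription factor ATF4 goes up, and ATF4 binds short composite elements near its target genes. Hypoxia is a known inducer of the stanniocalcins, and PPARA drives FGF21 in liver.

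The stretches around the transcription starts are shown because they differ in the elements such factors could use. Each runs from 250 bases before to 50 bases after the start of the RefSeq gene, read 5′ to 3′ on the strand of the gene in GRCh38.p14. They lie at chr5:173328365-173328664 on the minus strand for STC2, and on the plus strand at chr22:50481293-50481592 for ADM2, chr19:18385908-18386207 for GDF15 and chr19:48755274-48755573 for FGF21. Capitals mark, on either strand, the core of the C/EBP-ATF response element (TGATGNAA), the GC box (GGGCGG), the CCAAT box (CCAAT) and the TATA box (TATAAA).
STC2: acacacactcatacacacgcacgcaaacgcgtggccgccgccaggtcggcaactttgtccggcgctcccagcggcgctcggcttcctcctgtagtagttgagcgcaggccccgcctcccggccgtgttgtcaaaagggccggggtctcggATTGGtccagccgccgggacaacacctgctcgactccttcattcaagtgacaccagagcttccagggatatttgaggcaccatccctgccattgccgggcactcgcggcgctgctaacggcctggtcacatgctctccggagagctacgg
ADM2: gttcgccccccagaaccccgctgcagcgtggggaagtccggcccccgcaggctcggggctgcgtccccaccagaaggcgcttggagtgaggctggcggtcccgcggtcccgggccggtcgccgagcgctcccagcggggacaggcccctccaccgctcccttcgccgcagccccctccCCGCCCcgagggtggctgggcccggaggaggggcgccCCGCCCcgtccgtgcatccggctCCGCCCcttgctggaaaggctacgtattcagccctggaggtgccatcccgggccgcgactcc
GDF15: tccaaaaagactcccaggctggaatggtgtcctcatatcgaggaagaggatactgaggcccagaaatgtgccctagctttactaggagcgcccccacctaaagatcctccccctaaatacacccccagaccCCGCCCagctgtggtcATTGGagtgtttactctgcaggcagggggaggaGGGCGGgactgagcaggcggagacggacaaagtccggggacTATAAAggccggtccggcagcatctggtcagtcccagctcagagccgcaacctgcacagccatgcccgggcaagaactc
FGF21: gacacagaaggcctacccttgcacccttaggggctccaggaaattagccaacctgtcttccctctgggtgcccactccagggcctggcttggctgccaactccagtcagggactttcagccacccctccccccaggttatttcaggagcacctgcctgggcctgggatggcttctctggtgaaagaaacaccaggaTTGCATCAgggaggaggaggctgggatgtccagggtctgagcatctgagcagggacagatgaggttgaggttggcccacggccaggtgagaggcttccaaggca

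Of these 4 windows, that of FGF21 alone held TGATGNAA, at position −54, read as TTGCATCA on the plus strand. This motif was found in 3.67% of 27305 RefSeq promoters of the same length, and in 5 of the 17 promoters found for a list of ATF4 target genes. The ADM2 window held GGGCGG 3 times and GDF15 held it 2 times, against at least 1 copy in 44.6% of all promoters. A CCAAT box stood at −100 in STC2 and at −103 in GDF15 (35.7% of all promoters), and GDF15 had a TATA box at −29 (12.0%). The motif GCGTG, which hypoxia-inducible factors can bind, occurred 3 times in STC2 and once in ADM2 (36.3%), while ACGTG (21.6%) and the cyclic AMP element TGACGTCA (1.98%) occurred in none of the 4. G and C made up 76.7% of the ADM2 window and 64.0% of that of STC2, beside a median of 58.3%. A match describes letters only, and the absence of one speaks of this window alone.

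The totals on genes ran from 39824898 to 47297970 counts in shControl and from 11334133 to 24072396 in shYEATS2, so lower depth and the knockdown cannot be told apart by design. Levels are given as CPM, that is counts rescaled to a common library size by TMM, in units of 1e6 counts. YEATS2 fell from 66.1 and 66.7 CPM to 29.2 and 29.1 CPM (log2 fold change −1.19, SE 0.08, edgeR adjusted p = 3.55e-21). Among all 17058 tested genes, 22.6% were called higher after the knockdown and 23.6% lower (adjusted p under 0.05). These shares became 31.9% and 15.0% with library totals alone as the scaling, and with a change of at least 2-fold 1022 genes were higher and 631 lower. The markers of squamous epithelium were uneven. Of 10 listed, 6 were called lower and 1 higher, beside 23.6% and 22.6% of all tested genes. KRT17 and TP63 had too few counts for a test. The 10 summed to 455 and 452 CPM in shControl against 210 and 196 CPM in shYEATS2. The keratins KRT8 (266 CPM), KRT18 (111 CPM), KRT6A (56.6 CPM) and KRT5 (15.7 CPM) were present in shControl, and KRT6A and KRT5 fell to 1.79 and 1.19 CPM. KRT14 and EPCAM were near 1 CPM in shControl, TP63 had at most 3 counts in a library, and CDH1 rose from 0.335 to 2.48 CPM. The 8 fibroblast markers summed to between 7209 and 7299 CPM in shControl and to between 2223 and 2362 CPM in shYEATS2. Most of the shControl sum was COL1A1 (2796 CPM), COL1A2 (2616 CPM) and COL3A1 (1035 CPM). Of the 8, 6 were called lower, beside 23.6% of all tested genes, and THY1 had too few counts for a test. The 6 endothelial markers summed to 35.8 and 36.7 CPM against 19.1 and 20.4 CPM, nearly all of it KDR, which fell from 34.4 to 17.2 CPM, while CDH5 had at most 1 count. The 6 immune markers summed to 1.85 and 1.69 CPM against 0.553 and 1.44 CPM, most of it CD14, which fell by 1.08 on the log2 scale (edgeR adjusted p = 0.0103), while CD3E and CD68 were at 0 in every library. The part of these markers in the differences described here was not tested.

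STC2 (ENSG00000113739) was the most abundant of the 5 genes in every library. Its level was 116 and 109 CPM in the shControl libraries and 659 and 651 CPM in the shYEATS2 libraries. Both knockdown libraries stood far above both controls, and the lower of them was 5.62 times the higher control. The fit gave a log2 fold change of 2.54 (SE 0.06), which is 5.83-fold. Over the 4 pairs of one control and one knockdown library the log2 ratio ran only from 2.49 to 2.60. Ordered by CPM among all genes, STC2 stood at place 1737 and 1919 in shControl and at place 135 and 140 in shYEATS2. After division by exon length STC2 stood at place 1749 and 1885 in shControl and at place 198 and 199 in shYEATS2. In GRCh38 it spans chromosome 5, minus strand, from 173314723 to 173328447, and no other annotated gene overlaps it.

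ADM2 (ENSG00000128165) was a low transcript in control cells. It was counted 117 and 107 times in shControl and 549 and 265 times in shYEATS2, although the latter libraries were shallower. In CPM these were 2.58 and 2.83 against 21.7 and 22.5, so the conditions did not overlap and replicates lay close together. The fit gave 3.03 on the log2 scale (SE 0.13), an 8.15-fold higher level. ADM2 spans 50481543 to 50486440 on the plus strand of chromosome 22, and 48.6% of that span is shared with SBF1 on the opposite strand. The strand setting of the counting is not given in the sources used here, so reads from the shared stretch could have been dropped or given to either gene. SBF1 itself averaged 83.8 CPM in control and 86.4 ± 13.3 CPM (SD, n = 2) in knockdown libraries, a log2 fold change of 0.06 that did not pass the test (edgeR adjusted p = 0.534). Without shYEATS2 replicate 2 it was 0.19 and was called (adjusted p = 0.00363).

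GDF15 (ENSG00000130513) had the largest fold difference of the 5 genes. Its counts were 71 and 49 in shControl and 473 and 201 in shYEATS2. This corresponds to 1.57 and 1.30 CPM against 18.7 and 17.1 CPM, again with no overlap. Its log2 fold change of 3.64 (SE 0.16), or 12.5-fold, took place 54 from the top among all tested genes beside place 104 for ADM2 and place 158 for STC2. The control counts are small, and their exact 95% Poisson intervals, which cover counting error only, were 1.22 to 1.97 and 0.959 to 1.71 CPM. The gene lies on the plus strand of chromosome 19 from 18374731 to 18389176, and the microRNA gene within it, MIR3189, had no counts.

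STC1 (ENSG00000159167), the paralog of STC2, differed far less. Its level was 21.8 and 22.5 CPM in shControl and 43.7 and 38.4 CPM in shYEATS2. The conditions did not overlap, and the gap between the knockdown libraries (0.19 on the log2 scale) was wider than for STC2 (0.02). Its log2 fold change of 0.90 (SE 0.09) is a 1.87-fold higher level, at place 1384 among the tested genes.

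FGF21 (ENSG00000105550) was at the edge of detection. It had 0 counts in both shControl libraries, and 1 and 3 counts in the shYEATS2 libraries. A count of 0 allows up to 3 counts, that is 0.0661 and 0.0794 CPM in the controls, and the knockdown libraries had 0.0395 and 0.255 CPM. No library exceeded 3 counts, so no fold change is given, FGF21 was left out of the test by the filter on low counts, and whether its level differed was not detectable at this depth.

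**Figure D1:**
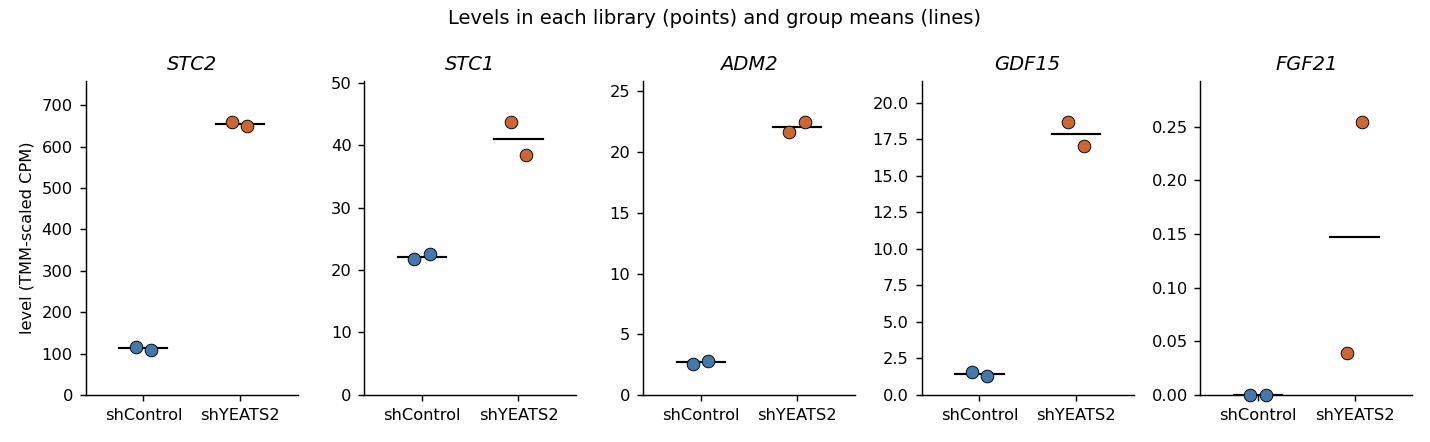
Level of each gene (vertical axis, TMM-scaled CPM, starting at 0 and on its own scale per panel) in the shControl and shYEATS2 libraries (points, 2 per group) with the group mean (line). STC2, STC1, ADM2 and GDF15 show no overlap between groups, while FGF21 reaches 0.255 CPM at most.

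STC1, STC2, ADM2 and GDF15 all had both shYEATS2 libraries above both shControl libraries, beside 35.3% of all tested genes (36.3% had both below). Nothing is read from this count because the genes were chosen with this difference known. All 4 passed the filter on low counts in shControl as well as in shYEATS2, with at least 49 counts in each control library.

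**Figure D2:**
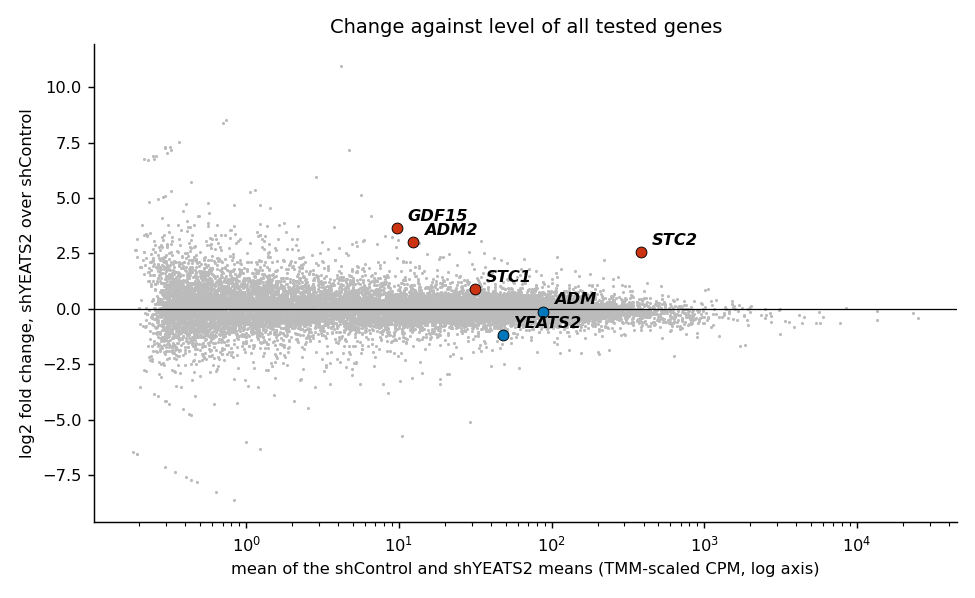
Log2 fold change of shYEATS2 over shControl (vertical axis) against the mean of the group means in TMM-scaled CPM (horizontal log axis) for the 17058 tested genes (grey), with 4 of the hormone genes in red and ADM and YEATS2 in blue. STC2 lies at 2.54, ADM2 at 3.03, GDF15 at 3.64, STC1 at 0.90 and ADM at −0.13, beside a median of −0.01 for all tested genes.

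Levels of different genes were also compared after division by exon length, in CPM per kb of annotated exon. In shControl the order was STC2 (22.2 ± 0.967, SD, n = 2), STC1 (5.36 ± 0.118), GDF15 (0.686 ± 0.091) and ADM2 (0.631 ± 0.042). The values of GDF15 and ADM2 overlapped, with 0.750 and 0.621 for the former and 0.601 and 0.660 for the latter, so their order in control cells was not resolved. In shYEATS2 the order was STC2 (129 ± 1.22), STC1 (9.92 ± 0.914), GDF15 (8.56 ± 0.548) and ADM2 (5.15 ± 0.134). Here STC1 and GDF15 differed by less than the sum of their spreads, while ADM2 stood below both. Each length is the union of all annotated exons of the gene, and whether another choice of length changes these orders was not tested. The ratio of STC2 to STC1 on this scale was 4.34 and 3.95 in shControl and 12.3 and 13.9 in shYEATS2, which shows how the paralogs drew apart. Among the 5 genes and 90 other genes for peptide hormones, STC2 moved from place 3 to place 1 and GDF15 from place 22 to place 7 by mean level per kb, with INHBB and ADM next after STC2 in the knockdown.

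The closest expressed relative of ADM2 did not share its difference. ADM, which encodes the vasodilator adrenomedullin, had 91.6 and 91.2 CPM in shControl and 81.9 and 85.4 CPM in shYEATS2. Its log2 fold change of −0.13 (SE 0.07) did not pass the test (edgeR adjusted p = 0.0992), and became 0.0026 with library totals alone as the scaling. ADM was called lower with no filter on low counts (adjusted p = 0.0407) and without shYEATS2 replicate 2 (adjusted p = 0.0146). Per kb of exon ADM2 stood at 1.53% and 1.68% of ADM in shControl and at 14.3% in both shYEATS2 libraries. The other relatives listed, CALCA, CALCB and IAPP of the calcitonin family and the endocrine factors FGF19 and FGF23, had too few counts to be tested.

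The receptor for ADM2 was present and its parts moved in opposite directions. CALCRL, the seven-pass receptor itself, rose from 20.9 and 21.2 CPM to 30.8 and 36.0 CPM (log2 fold change 0.65, SE 0.09, edgeR adjusted p = 1.07e-08). RAMP1, the partner that makes CALCRL a receptor for calcitonin gene-related peptide, fell from 8.69 and 7.22 CPM to 2.96 and 1.61 CPM (log2 fold change −1.68, SE 0.19, edgeR adjusted p = 5.88e-11). The size of the fall rested in part on 1 library, as the log2 fold change was −2.32 without shYEATS2 replicate 1 and −1.44 without shYEATS2 replicate 2. RAMP2 had at most 2 counts in a library and RAMP3 had 0 in each, so the partners that favour adrenomedullin peptides were not detectable at this depth. CALCR, the calcitonin receptor, rose from 0.353 and 0.529 CPM to 1.11 and 1.61 CPM (edgeR adjusted p = 0.00176) at very low counts, from 16 to 28 per library. ACKR3, a scavenging receptor for adrenomedullin, had 60.5 CPM in shControl and 61.7 CPM in shYEATS2 on average (edgeR adjusted p = 0.657), and was called higher with library totals alone (adjusted p = 0.0469).

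The receptors of the other hormones were incomplete in these cells. GFRAL, the receptor of GDF15, had 0 counts in 3 libraries and 2 in shYEATS2 replicate 1, and its signalling partner RET had between 4 and 18 counts per library with no call (log2 fold change 0.44, SE 0.54, edgeR adjusted p = 0.534). KLB, the co-receptor that FGF21 requires, had 0 counts in all 4 libraries. FGFR1, the FGF receptor that pairs with KLB, rose from 144 and 142 CPM to 229 and 209 CPM (log2 fold change 0.62, SE 0.06, edgeR adjusted p = 1.65e-13). FGFR3 fell from 0.970 and 1.16 CPM to 0.395 and 0.339 CPM (log2 fold change −1.49, SE 0.46, edgeR adjusted p = 0.00625), a call lost with DESeq2 (adjusted p = 0.0769) and without shControl replicate 2 (adjusted p = 0.0600). FGFR4 did not pass the test at 7.30 and 8.51 CPM (group means, edgeR adjusted p = 0.155) except with library totals alone (adjusted p = 0.0243), and FGFR2 had at most 5 counts in a library. Of the 14 receptors and co-receptors, 8 could be tested, 3 were higher (37.5%, beside 22.6% of all tested genes) and 2 lower (25%, beside 23.6%), with a median log2 fold change of 0.34 beside −0.01 for all tested genes. With library totals alone, which moved the median of all tested genes to 0.13, 5 were higher and 2 lower, beside 31.9% and 15.0% of all tested genes.

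The targets of the stanniocalcins also moved apart. PAPPA, which encodes the protease PAPP-A that both hormones inhibit, fell from 20.0 and 19.3 CPM to 13.1 and 13.2 CPM (log2 fold change −0.58, SE 0.11, edgeR adjusted p = 5.25e-06). PAPPA2, its paralog, rose from 4.19 and 4.98 CPM to 12.1 and 12.7 CPM (log2 fold change 1.43, SE 0.14, edgeR adjusted p = 1.09e-13). IGFBP4, the growth factor carrier that PAPP-A cleaves, fell from 3.99 and 4.50 CPM to 2.09 and 1.78 CPM (log2 fold change −1.10, SE 0.22, edgeR adjusted p = 3.25e-05). IGFBP5 had 17 counts at most and did not pass the test (edgeR adjusted p = 0.149). IGF1R, the receptor of these growth factors, fell with a log2 fold change of −0.72 (SE 0.12), and IGF2R, which clears IGF2, rose with 0.57 (SE 0.06). IGF2 itself was called lower at 2 counts in each knockdown library (edgeR adjusted p = 0.0371), and that call was lost with DESeq2, with library totals alone, without a filter on low counts and without shControl replicate 2, shYEATS2 replicate 1 or shYEATS2 replicate 2 (adjusted p between 0.0562 and 0.395). IGF2 passed the filter on low counts only through the shControl libraries. In all, 7 of 9 genes of this axis were tested, of which 2 were higher (28.6%, beside 22.6% of all tested genes) and 4 lower (57.1%, beside 23.6%).

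**Figure D3:**
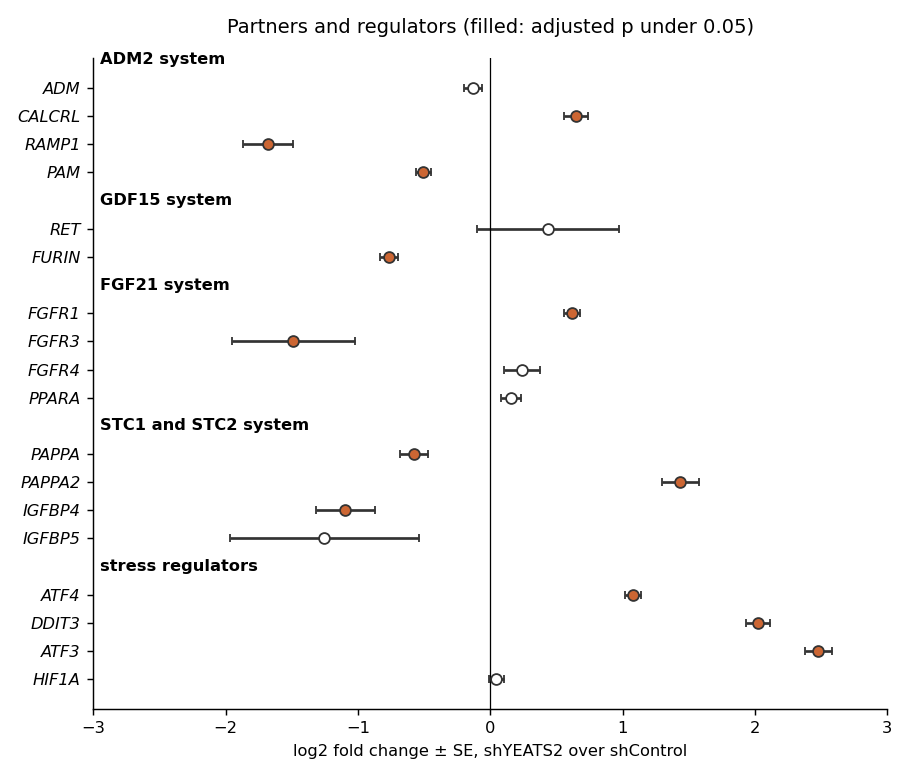
Log2 fold change of shYEATS2 over shControl (horizontal axis, points with bars of 1 SE) for tested partners and regulators, grouped by the hormone they belong to, filled where the adjusted p is under 0.05. CALCRL, FGFR1 and PAPPA2 lie to the right and RAMP1, FURIN, PAM, PAPPA and IGFBP4 to the left of 0, while HIF1A lies close to it.

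Enzymes that process secreted hormones were lower where they changed. PAM, the only enzyme known to amidate peptides such as ADM2, fell from 566 and 580 CPM to 398 and 409 CPM (log2 fold change −0.51, SE 0.06, edgeR adjusted p = 2.56e-11). FURIN, a proprotein convertase that can cleave the GDF15 precursor, fell from 100 and 106 CPM to 63.6 and 56.8 CPM (log2 fold change −0.77, SE 0.07, edgeR adjusted p = 4.80e-15). PCSK5, another such convertase, and CPE, which trims basic residues from prohormones, had the largest falls of this list, with log2 fold changes of −1.29 and −1.26 (SE 0.08 each). Of 7 tested enzymes 5 were lower (71.4%, beside 23.6% of all tested genes), 0 were higher, and PCSK1 and FAP did not pass the test (edgeR adjusted p = 0.800 and 0.470), a split that library totals alone left at 5 lower and 0 higher.

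The regulators of the stress response were measured to set the hormones beside them. ATF4 rose from 189 and 185 CPM to 407 and 382 CPM (log2 fold change 1.08, SE 0.06, edgeR adjusted p = 5.58e-25). DDIT3, which encodes the ATF4-induced factor CHOP, rose from 12.0 and 11.7 CPM to 49.5 and 47.0 CPM (log2 fold change 2.03, SE 0.09). ATF3, TRIB3, a pseudokinase that feeds back on ATF4, and PPP1R15A, the phosphatase subunit GADD34, rose with log2 fold changes of 2.48, 2.26 and 1.49. The mRNAs of the eIF2alpha kinases differed little, and their calls changed with the scaling. EIF2AK1 and EIF2AK3 did not pass the test (edgeR adjusted p = 0.975 and 0.478), and EIF2AK2 and EIF2AK4 fell by 0.25 and 0.24 on the log2 scale. With library totals alone the former pair was called higher (adjusted p = 0.0447 and 0.0211) and the latter pair was not called (adjusted p = 0.134 and 0.137). EIF2AK4 also lost its call without shControl replicate 2 (adjusted p = 0.0516). Phosphorylation, by which these kinases act, is not read by RNA counts. Of 23 regulators 12 were higher (52.2%, beside 22.6% of all tested genes) and 5 lower (21.7%, beside 23.6%), with a median log2 fold change of 0.19. There were 16 higher and 3 lower with library totals alone, beside 31.9% and 15.0% of all tested genes.

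The known target genes of ATF4 were higher with few exceptions. Of 20 genes in this list, 17 were called higher (85.0%, beside 22.6% of all tested genes) and 0 lower, with a median log2 fold change of 1.11 beside −0.01. CHAC1, which degrades glutathione, had the largest rise, from 2.82 and 3.39 CPM to 25.1 and 23.0 CPM (log2 fold change 2.97, SE 0.13). SESN2, an inhibitor of mTORC1, rose from 15.0 and 13.7 CPM to 70.9 and 69.0 CPM (log2 fold change 2.28, SE 0.08). The glycine transporter gene SLC6A9 and the asparagine synthetase gene ASNS followed with 1.74 (SE 0.11) and 1.67 (SE 0.18). PHGDH, SLC7A11 and VLDLR did not pass the test (edgeR adjusted p = 0.200, 0.947 and 0.492), and PHGDH was called lower without shYEATS2 replicate 1 (adjusted p = 0.0248). The list was written with the rise of several of its members already known, so its count is a description.

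Genes that respond to hypoxia moved in both directions, more of them down. HIF1A mRNA averaged 618 ± 27.6 CPM in control and 638 ± 21.8 CPM in knockdown libraries (SD, n = 2 each, edgeR adjusted p = 0.549), and was called higher with library totals alone (adjusted p = 0.0097). Of 12 hypoxia-response genes 8 were lower (66.7%, beside 23.6% of all tested genes) and 2 higher (16.7%, beside 22.6%), with a median log2 fold change of −0.43. EGLN3, an oxygen-sensing hydroxylase, CA9, a carbonic anhydrase, and PDK1, which restrains pyruvate dehydrogenase, fell by 1.63, 1.34 and 0.76 on the log2 scale, and ANGPTL4, a secreted lipase inhibitor, rose with 1.17 (SE 0.13). The fall of EGLN3 rested on few counts (50 at most in shControl, 12 and 2 in shYEATS2) and was −2.75 without shYEATS2 replicate 1. EGLN3 passed the filter on low counts only through shControl. PPARA, the nuclear receptor that drives FGF21 in liver, had 44.3 CPM in shControl and 49.4 CPM in shYEATS2 on average (edgeR adjusted p = 0.0813), and passed the test with library totals alone (adjusted p = 0.00147) and with counts thinned to the smallest total (adjusted p = 0.0263).

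**Figure D4:**
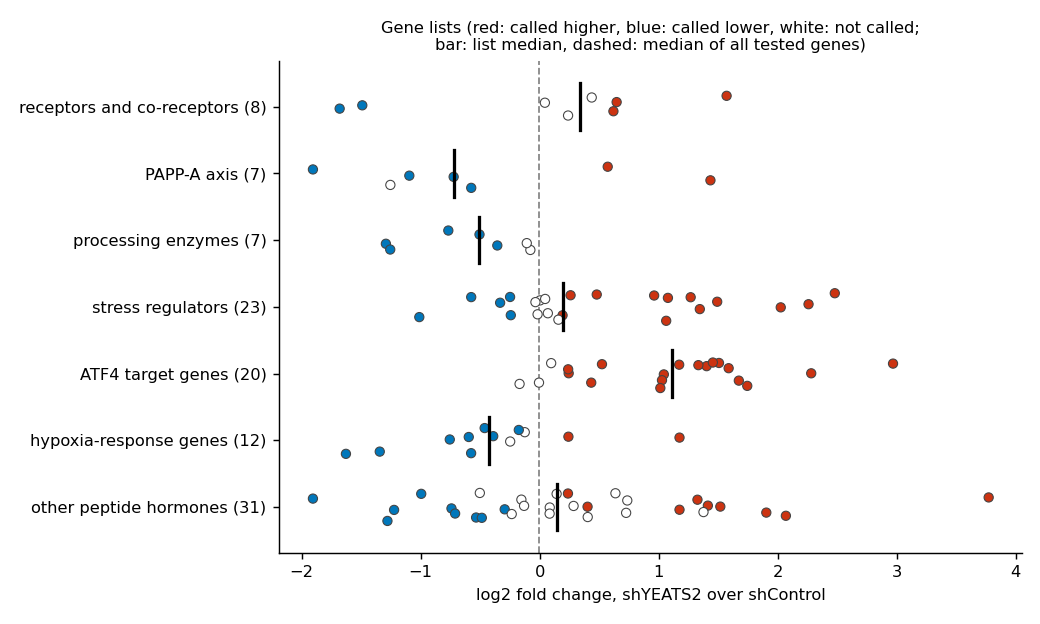
Log2 fold change of shYEATS2 over shControl (horizontal axis) of each tested gene in 7 lists (rows, number tested in brackets), red where called higher, blue where called lower and white where not called, with the list median (bar) and the median of all tested genes (dashed line). The ATF4 target genes have the highest median (1.11), the PAPP-A axis the lowest (−0.72).

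Other peptide hormones were divided. This list overlaps others, as it holds the 6 close relatives, IGF1 and IGF2 of the PAPP-A axis, and ANGPTL4. The calls of IGF2 (lower) and of ANGPTL4 (higher, also a hypoxia-response gene) are counted again here. Of 90 genes 31 could be tested, and 9 were higher and 9 lower (29.0% each, beside 22.6% and 23.6% of all tested genes). With library totals alone these became 11 and 4, beside 31.9% and 15.0% of all tested genes, and with DESeq2 6 and 3, beside 16.5% and 17.3%. Without shControl replicate 1 or shYEATS2 replicate 1, calls became fewer both in this list and among all tested genes. The list median log2 fold change was 0.14 with all libraries, 0.16 without the former and 0.02 without the latter. The medians of all tested genes were −0.01, 0.004 and −0.03. The largest rise was that of INHBE, which encodes an activin subunit made mainly by liver, from 11 and 8 counts in shControl to 93 and 29 counts in shYEATS2 (log2 fold change 3.77, SE 0.37). Its sister INHBA, which encodes the subunit of activin A, rose from 15.4 and 15.5 CPM to 58.1 and 57.4 CPM (log2 fold change 1.90, SE 0.08). AGT, the precursor of angiotensin, was called higher at 6 to 13 counts per library (edgeR adjusted p = 0.00392), and lost the call without shControl replicate 1 (adjusted p = 0.0648), shControl replicate 2 (adjusted p = 0.0554) or shYEATS2 replicate 2 (adjusted p = 0.113). Of the hormones named here, INHBE and AGT passed the filter on low counts only through the shYEATS2 libraries, where they are high. Of the 59 genes with too few counts for a test, 35 had 0 counts in every library.

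The genes with profiles most like those of STC2 and ADM2 over the 4 libraries were found by the Euclidean distance between centred log2 CPM values. The search covered the 9365 tested genes that averaged 10 CPM or more over all 4 libraries. With 4 libraries in 2 conditions, this distance mostly reads the size of the difference between conditions. ATF3 was nearest to STC2 (distance 0.15), followed by TENM1, COL6A3, ADD2 and CCN2 (0.20 to 0.24). CHAC1 was nearest to ADM2 (0.17), followed by MAGEC2 (0.21), TENM1 (0.47), STC2 (0.48) and UNC5B (0.54). ATF3, TENM1, COL6A3, ADD2, CHAC1 and MAGEC2 averaged 3.10 to 8.38 CPM in shControl, so they passed this cut only through shYEATS2. ATF3 belongs to the regulators listed above and CHAC1 to the ATF4 target genes, and nothing is read from this.

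Along the chromosomes, the tested genes nearest to these loci moved in both directions or did not pass the test. For STC2 these were NKX2-5, with a log2 fold change of −0.08 (edgeR adjusted p = 0.703), and BOD1, with 0.48 (SE 0.07). Beside ADM2 and past SBF1, PPP6R2 fell by 0.36 on the log2 scale and LMF2 did not pass the test (−0.16, edgeR adjusted p = 0.0902). LMF2 was called lower with no filter on low counts (edgeR adjusted p = 0.0256) and with a replicate block (edgeR adjusted p = 0.0453). Its log2 fold change was −0.331 without shYEATS2 replicate 1. PGPEP1, 4781 bp from the GENCODE bound of GDF15, rose with 0.58 (SE 0.08). The RefSeq start window of GDF15 (18385908 to 18386207) lies inside its GENCODE span and so further from PGPEP1. SSBP4 on the other side of GDF15 did not pass the test (−0.03, edgeR adjusted p = 0.833). FUT1, 134 bp from FGF21, was called higher at 3 and 3 counts in shControl and 9 and 4 in shYEATS2 (edgeR adjusted p = 0.0221). It passed the filter on low counts only through shYEATS2. The call was lost with DESeq2 (adjusted p = 0.144), without a filter on low counts and without shYEATS2 replicate 2. BCAT2, on the other side of FGF21, was not called. On the higher-coordinate side of STC1 the nearest tested gene, AF106564.1, lay 1057357 bp away and was called lower at 9 and 13 counts in the knockdown libraries (−1.48, SE 0.38), a call lost without shYEATS2 replicate 1 (adjusted p = 0.265). Without that same library NKX2-5 and SSBP4 were called lower (adjusted p = 0.0310 and 0.0427).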

How the data were processed

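The authors prepared stranded mRNA libraries from TRIzol-extracted RNA, aligned the read pairs to GRCh38 with STAR, counted them per gene with HTSeq, and deposited raw counts without normalization, 1 table per library. The annotation release and strand setting are not given in the sources used here. Tallies of read pairs given to no gene (15.3% to 16.5% of each library) were left out. After filterByExpr, which kept 17058 genes, and TMM scaling, the quasi-likelihood test of edgeR 4.0.16 was run in R 4.3.3 (glmQLFit in its robust form, then glmQLFTest), with Benjamini-Hochberg adjustment over all of them and a threshold of 0.05. The ± values are SDs of 2 libraries. The script was tested on simulated data.

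Positions and exon lengths (the union of all exons of a gene) are from GENCODE release 44, which held 60295 of the 60623 identifiers, and promoters are from RefSeq, GRCh38.p14. AARS1 and GARS1 appear in the tables under older symbols. The members and gene lists were chosen with earlier results of these data known. Named are the 5 members, their direct partners, in each list the 4 called genes with the largest change whose libraries did not overlap, and the 5 nearest profiles. The nearest genes along the chromosome, SBF1, ACKR3, IGF2R, PCSK1, FAP, EIF2AK1 to EIF2AK4, PHGDH, SLC7A11, VLDLR, INHBB and the marker genes were added after their values were seen.

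Alternatives were DESeq2 size factors, library totals or upper quartiles for scaling, testing all genes or those with 10 counts or more in each library, other tests (limma-voom from limma 3.58.1, DESeq2 1.42.0), a replicate block, counts thinned to the smallest total, a change of at least 2-fold, and each library left out in turn. Some planned genes, and a list tied to one of them, are not reported here.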

Additional observations from a re-analysis of the deposited data

How the results depend on the processing

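The 4 tested hormone genes kept the sign of their difference under every alternative that could be run. With library totals alone the log2 fold change was 2.677 for STC2, 3.161 for ADM2 and 1.0378 for STC1. It was 2.4946 for STC2 with no filter on low counts, and 3.0995 for ADM2 with counts thinned to the smallest total. Leaving out each library in turn gave 2.4926 to 2.5839 for STC2, 2.9516 to 3.0839 for ADM2, 0.7783 to 0.976 for STC1 and 3.51 to 3.78 for GDF15. Requiring at least a 2-fold change left 1653 called genes of 17058 tested. It left 3 of 12 hypoxia-response genes, 3 of 7 genes of the PAPP-A axis and 2 of 7 processing enzymes. Among receptors it left 3 of 8, among stress regulators 9 of 23 and among other hormones 10 of 31. The other hormones numbered 9 calls with DESeq2, 9 with thinned counts, and 9 to 14 without 1 library. Close relatives had 1 call with no filter and 0 to 1 without 1 library. The calls among other hormones were 9 of 31 tested with DESeq2, beside 16.5% higher and 17.3% lower of all tested genes. With thinned counts they were 9 of 20 tested, beside 21.7% higher and 22.3% lower. Leaving out 1 library leaves 1 in a condition, so those counts were not set beside all tested genes. Several genes that were not called changed sign. With library totals alone these were ADM (0.0026), BCAT2 (0.0664), NKX2-5 (0.057), SSBP4 (0.1067) and SLC7A11 (0.1272). SLC7A11 also had 2e-04 with DESeq2 size factors, 0.0074 with the upper quartile, 3e-04 with DESeq2 and 0.003 with thinned counts, and with no filter ACKR3 had −0.0047, HIF1A −0.0036 and EIF2AK1 −0.0463, the last also −0.0046 with thinned counts. Without 1 library the log2 fold change ran from −0.0992 to 0.1307 for ACKR3, −0.0392 to 0.0325 for EIF2AK1, −0.0043 to 0.0844 for HIF1A, −0.5111 to 0.1287 for NKX2-5, −0.2063 to 0.7414 for RET, −0.1365 to 0.1873 for SBF1, −0.1025 to 0.0692 for SLC7A11 and −0.2622 to 0.1026 for SSBP4. The cause was not tested. No difference between replicates 1 and 2 that the conditions shared was seen (correlation of the differences of replicates 1 and 2 between conditions −0.0184). This cannot show whether libraries of the same number were handled together. The replicate block gave 3870 genes higher and 4142 lower beside 3857 and 4019. With 2 libraries a condition and 11334133 counts in the smallest, genes of a few counts, such as FGF21, could not be compared.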
